A study of Danio rerio with 16 samples.

Results

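The DNA replication and S-phase genes are 33 listed genes whose products open replication origins, copy DNA, supply nucleotides, pack the new DNA or repair breaks during S phase. They were chosen by symbol and not by a rule on their values, but with earlier results of these data known. Of the 33, 32 have a row in all 4 gene tables, out of 24753 symbols that the tables share. The gene *brca1* was not analysed here. The hearts of adult zebrafish (*Danio rerio*) were profiled by single-nucleus RNA sequencing, which counts the RNA of one nucleus at a time. Fish were wild type (WT) or carried the *cited4a* genotype pt38a/pt38a (mutant), and hearts were either uninjured (UI) or taken 3 days post amputation (3 dpa) of about 20% of the ventricle. The labels list 16 samples, 4 per group, but each group came as 1 matrix whose barcodes carry no sample, so each group is 1 library here and no comparison has a replicate check. The titles of the 4 samples of a group differ only in an ending of the form used for sequencing lanes. Whether they are separate hearts or lanes of 1 library cannot be told from these titles. By its title, the series concerns the part of *cited4a* in cardiomyocyte dedifferentiation and division as the heart regenerates. The sources used here give neither the age of the fish, nor the number of hearts pooled, nor what the pt38a allele does to the transcript.

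A cell copies its DNA in S phase. Before that, Cdt1 helps to load the MCM helicase onto origins, and once S phase has begun Cdt1 is destroyed so that no origin fires again. E2F factors and cyclin E switch on a shared programme of genes for the replication machinery, so that its RNA is low in resting cells and high in cells about to divide. In the adult zebrafish heart, amputation of the ventricle is known to bring epicardial cells, fibroblasts, endocardial cells and then cardiomyocytes into the cell cycle. Roles named below come mostly from work in yeast, frog and mammalian cells.

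Nuclei with 500 or more UMIs (unique molecular identifiers, one per captured RNA molecule) and at most 5% mitochondrial UMIs were kept. Sets of 4 values below always begin with the WT pair and end with the mutant pair, UI before 3 dpa within each. In this order, 8178, 10394, 9932 and 9140 nuclei were kept, with a median of 1725, 1052, 973 and 950.5 UMIs. Levels are in CPM, each gene's UMIs over the library's total on the shared genes, scaled as usual for that unit. RNA was captured at its 3 prime end, so levels are compared between libraries and not between genes. The WT matrices held 0 barcodes under 500 UMIs, and those labelled mutant UI and mutant 3 dpa held 19868 and 2704. The WT pair of matrices shared 136 barcodes, the mutant pair 133, and the genotypes 0. The targeted gene, *cited4a*, stood at 153, 53.7, 32.6 and 370 CPM, so it was lowest in the library labelled mutant UI and highest in that labelled mutant 3 dpa. The library labelled mutant 3 dpa thus held more *cited4a* RNA than either WT library, and every direction below rests on the labels as given. In the mutant pair *cited4a*, the members and the mitosis genes all ran opposite to WT, and whether these 2 matrices carry each other's condition names cannot be told from the files. An exchange would turn the sign of every ratio within the mutant pair. It would also set each mutant library against the other WT library in the comparisons between genotypes. Intervals are exact 95% counting intervals and cover counting error only.

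Summed over the 32 genes, replication RNA was low in WT UI and mutant 3 dpa and high in WT 3 dpa and mutant UI. The sums were 133 CPM (127 to 138) in the library labelled WT UI, 433 CPM (424 to 443) in WT 3 dpa, 492 CPM (479 to 505) in mutant UI and 135 CPM (128 to 142) in mutant 3 dpa. The library labelled WT 3 dpa was therefore 3.27-fold (3.12 to 3.43) above WT UI, while the library labelled mutant 3 dpa was 3.65-fold (3.44 to 3.87) below mutant UI. Between genotypes, mutant UI was 3.71-fold (3.53 to 3.90) above WT UI, and mutant 3 dpa was 3.22-fold (3.04 to 3.41) below WT 3 dpa. With the mutant names exchanged, the WT and mutant sums compared would be 133 and 135 CPM, and 433 and 492 CPM. The comparisons share libraries, each library entering 2 of the 4.

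All 32 members were higher in WT 3 dpa than in WT UI by CPM, although *rrm2* and *hells* turned lower under TMM scaling, which sets the typical gene to no change. A gene is counted below when its log2 ratio of CPM + 1 passed 2-fold, among genes with 10 or more UMIs in the 2 libraries, a minimum that all 32 members met. In WT, 27 of 32 members were past 2-fold higher and 0 lower, beside 14.4% of all 21855 genes. That count rests on the pseudocount: at CPM + 10, 3 of 32 members passed, beside 2.54% of all genes. With CPM + 1 the members' median log2 ratio was 1.501, against 0.41 over all genes, so the whole table was shifted upward in the same comparison. TMM scaling brought the median of all genes to 0.02 and that of the members to 1.05, with 17 members past 2-fold higher and 0 lower. All genes split into 14.4% higher and 1.15% lower by CPM, and into 4.301% and 4.79% under TMM. In the mutant pair, 28 of 32 members were past 2-fold lower and 0 higher in the library labelled 3 dpa, beside 15.1% of all 19299 genes, and at CPM + 10 they were 7 of 32, beside 4.23%. The median at CPM + 1 was −1.79 for members and −0.31 for all genes, and −1.48 and 0.02 under TMM, with all 32 members lower on both scales. All genes split there into 3.61% higher and 15.1% lower by CPM, and into 6.97% and 8.71% under TMM.

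Set across genotypes, 28 of 32 members were past 2-fold higher in mutant UI than in WT UI, beside 18% of all genes, with medians of 1.57 and 0.26, and 8 passed at CPM + 10, beside 5.35%. In mutant 3 dpa against WT 3 dpa, 26 of 32 were past 2-fold lower, beside 23.4% of all genes, with medians of −1.63 and −0.47, and 7 passed at CPM + 10, beside 5.57%. All 32 members were higher in mutant UI on both scales. In the comparison of the 3 dpa libraries 31 members were lower and *rrm2* was higher, and under TMM *mcm7* was higher too. Under TMM all genes split into 10.8% higher and 9.50% lower between the UI libraries, against 18.0% and 5.16% by CPM, and into 10.6% higher and 11.6% lower between the 3 dpa libraries, against 4.38% and 23.4%. The WT and mutant gene tables differ, with 25432 and 27758 gene IDs, and genotype cannot be told apart from the table. All comparisons between genotypes also rest on the mutant labels as given.

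**Figure D1:**
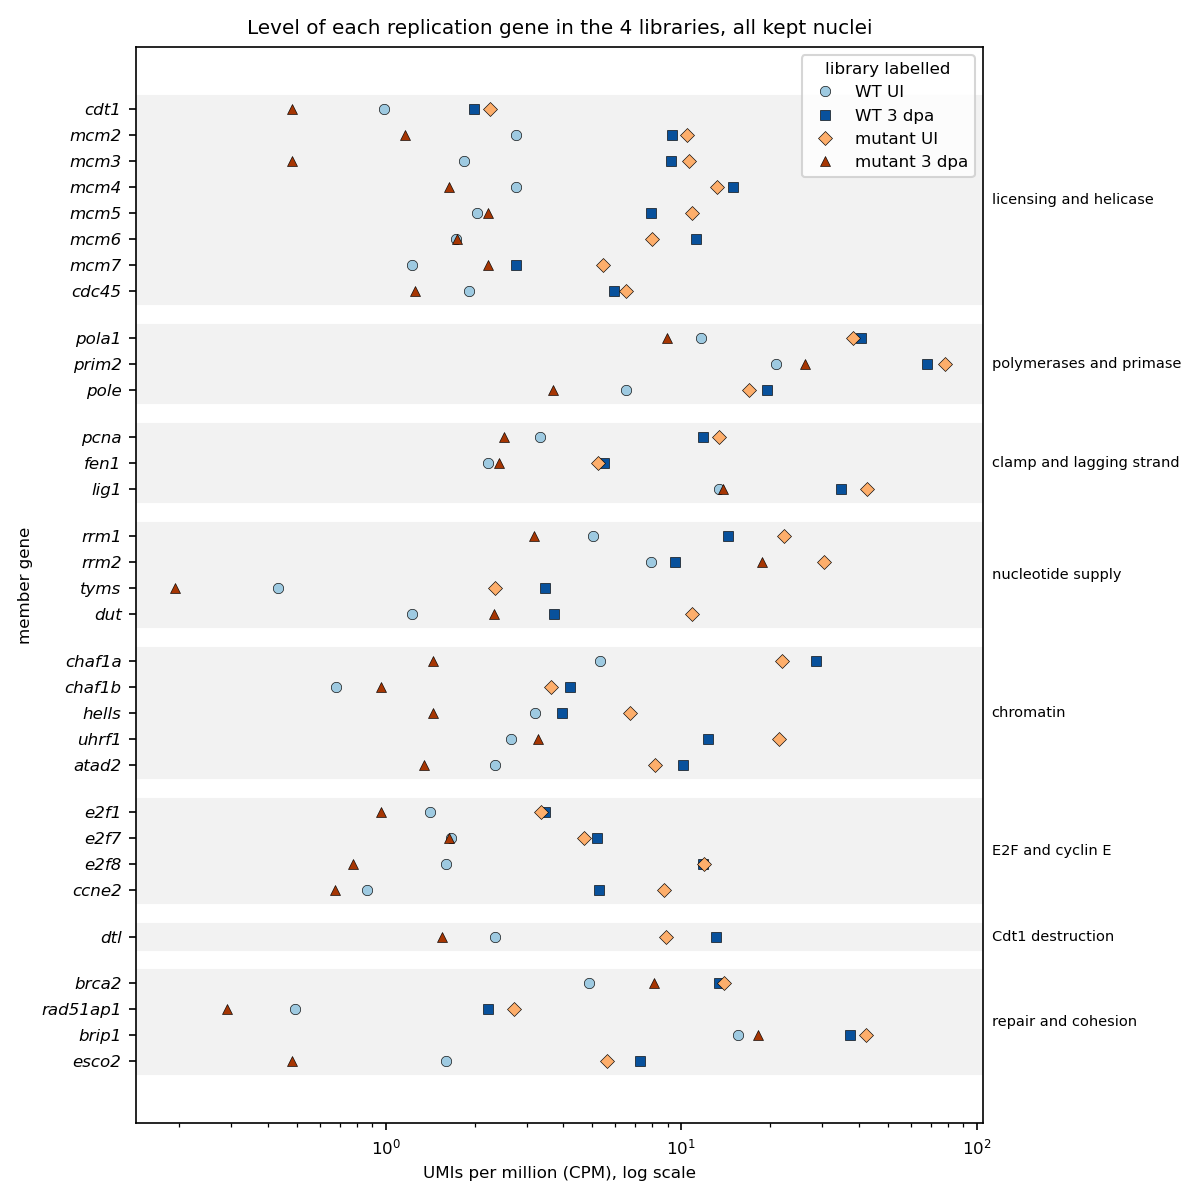
Level of each member in CPM (log scale) in the 4 libraries, with members grouped by role. For most members the points for WT 3 dpa and mutant UI lie close together on the right and those for WT UI and mutant 3 dpa on the left, while *rrm2* has its WT 3 dpa point (9.56 CPM) left of its mutant 3 dpa point (18.8 CPM).

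The summed levels of markers of several cell types were high in the same 2 libraries as the members, and those of others were not. The 17 fibroblast or epicardial markers summed to 495, 3054, 2222 and 327 CPM, the 17 macrophage markers to 574, 945, 1281 and 223 CPM, and the 16 measured erythroid markers to 853, 2904, 5270 and 742 CPM. None of the markers of these 3 lists was at 0 in any library. Thrombocyte, T or NK lymphocyte and B lymphocyte markers were also higher in WT 3 dpa and mutant UI than in the other libraries. The 16 measured cardiomyocyte markers summed to 110953, 75746, 56401 and 78295 CPM, the 19 endothelial or endocardial markers to 1840, 1603, 890 and 1332 CPM and the 12 mural or smooth muscle markers to 1807, 1542, 894 and 670 CPM. Neutrophil and neural or glial markers did not follow the members either. The part of any of these cells in the member sums was not tested. In sums over all nuclei, fewer nuclei of a type and less RNA per nucleus cannot be told apart.

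Licensing and helicase genes build the machine that unwinds DNA. Summed, the 8 genes stood at 15.3, 63.3, 67.4 and 11.2 CPM. In WT 6 of the 8 were past 2-fold higher at 3 dpa, beside 14.4% of all genes. In the mutant pair 7 of the 8 were past 2-fold lower, beside 15.1% of all genes. The same shares of all genes stand beside the counts of the other role groups below. All these counts are at CPM + 1, and at CPM + 10 only 3 and 7 of the 32 members passed in these pairs. *mcm4*, a subunit of the MCM helicase ring, stood at 2.77, 15.01, 13.2 and 1.64 CPM. Its levels in WT 3 dpa and mutant UI were far above the other two, by 5.41-fold (3.94 to 7.59) within WT and 8.04-fold (4.85 to 14.2) within the mutant. *mcm2*, another subunit of the ring, stood at 2.77, 9.29, 10.5 and 1.16 CPM, with the same libraries high. The *mcm2* ratio was 3.35-fold (2.40 to 4.76) upward in WT and 9.05-fold (4.99 to 18.0) downward in the mutant pair. The subunits did not share one ratio: *mcm7*, named after its values were seen, stood at 1.23, 2.75, 5.43 and 2.22 CPM, and its levels in the 2 libraries labelled 3 dpa had overlapping intervals (2.05 to 3.62 and 1.41 to 3.34). *mcm3*, also named after its values were seen, had 5 UMIs in mutant 3 dpa against 118 in mutant UI, a log2 ratio of −4.47 (−6.12 to −3.20). Over the whole group the log2 ratio of CPM + 1 ran from 0.59 to 2.17 in WT and from −2.977 to −0.996 in the mutant pair. The WT ends were *cdt1*, the loader, which did not pass 2-fold, and *mcm6*. In the mutant pair the ends were *mcm3* and *mcm7*. *cdc45*, which joins MCM in the active helicase, and *mcm5* lay between the ends in both pairs.

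Polymerase and primase genes start and extend the new strands. Their 3 genes summed to 39.1, 128, 133 and 39.0 CPM, and all 3 were past 2-fold in both genotypes. *prim2*, the large subunit of primase, which lays down the RNA primer, had the most UMIs of any member and stood at 20.9, 67.9, 78.0 and 26.3 CPM. It made up 15.7%, 15.7%, 15.9% and 19.5% of all member UMIs. Together with *brip1*, *lig1* and *pola1* it made up 46.5%, 41.7%, 40.9% and 50% of them, so these 4 genes weigh heavily in the member sums. *pola1*, the catalytic subunit of polymerase alpha, which extends the primer, stood at 11.6, 40.7, 38.3 and 8.99 CPM. The ratios of *pola1* were 3.50-fold (2.98 to 4.12) upward in WT and 4.26-fold (3.40 to 5.39) downward in the mutant pair, and those of *prim2* were 3.25-fold (2.88 to 3.67) and 2.97-fold (2.59 to 3.41).

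The clamp and lagging-strand genes join the short fragments made on one strand. Together the 3 genes stood at 19.04, 52.2, 61.3 and 18.8 CPM. All 3 were past 2-fold higher in WT 3 dpa, and 2 of 3 were past 2-fold lower in mutant 3 dpa, the third being *fen1*, the flap nuclease. *lig1*, the ligase that seals the fragments, stood at 13.5, 34.8, 42.5 and 13.9 CPM, and the 2 low libraries had overlapping intervals (11.8 to 15.4 and 11.7 to 16.4). *pcna*, the sliding clamp and a common histological mark of cycling cells, stood at 3.33, 11.8, 13.5 and 2.51 CPM. The level of *pcna* was 3.55-fold (2.63 to 4.88) higher at 3 dpa in WT and 5.37-fold (3.52 to 8.48) lower at 3 dpa in the mutant pair.

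Among the nucleotide-supply genes 1 gene, *rrm2*, ran apart from the rest. Of the 4 genes, 3 were past 2-fold higher in WT 3 dpa and 3 past 2-fold lower in mutant 3 dpa. They summed to 14.6, 31.2, 66.0 and 24.5 CPM, and mutant 3 dpa lay only 1.27-fold (1.095 to 1.48) below WT 3 dpa, against 3.22-fold for all members. Without *rrm2*, a choice made after seeing the data, the other 3 genes summed to 6.71, 21.7, 35.6 and 5.70 CPM, and mutant 3 dpa lay 3.80-fold (2.88 to 5.08) below WT 3 dpa. *rrm2*, the small subunit of ribonucleotide reductase, held 195 of the group's 254 UMIs in mutant 3 dpa and stood at 7.89, 9.56, 30.4 and 18.8 CPM. The WT libraries did not differ beyond counting error (1.21-fold, 0.960 to 1.53), and the mutant libraries were both above the WT ones. Its partner *rrm1*, the large subunit of the same enzyme, stood at 5.05, 14.5, 22.4 and 3.19 CPM, which is the pattern of the other members. The symbol *rrm2* covers 2 gene IDs, which were summed. One of them held 127, 170, 327 and 192 UMIs and the other 1, 7, 9 and 3, so the pattern is that of the first ID, and RefSeq lists *rrm2* as a synonym of both *rrm2b* and *rrm2l*, so the identity of this row is less sure than that of the others. *tyms*, which makes thymidylate, was named after its values were seen: it had 7, 64, 26 and 2 UMIs, the fewest of any member in mutant 3 dpa.

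Chromatin genes repack and re-mark the copied DNA. Their 5 genes summed to 14.2, 59.3, 61.9 and 8.50 CPM, and the mutant pair differed by 7.28-fold (5.82 to 9.19), the widest gap of the 8 role groups in that pair. The interval overlapped those of other groups, among them E2F and cyclin E (7.09-fold, 5.13 to 10.0). *chaf1a*, the largest subunit of chromatin assembly factor 1, stood at 5.30, 28.6, 22.0 and 1.45 CPM. Its level in mutant 3 dpa lay below that of WT UI, whose interval began at 4.24, and the mutant pair differed by 15.2-fold (9.02 to 27.5). *uhrf1*, which carries DNA methylation over to the new strand, stood at 2.65, 12.4, 21.4 and 3.29 CPM. It was highest in mutant UI, 8.10-fold (5.83 to 11.5) above WT UI. *hells*, a chromatin remodelling enzyme named after its values were seen, stood at 3.20, 3.94, 6.70 and 1.45 CPM, and its WT libraries did not differ beyond counting error (1.23-fold, 0.850 to 1.79).

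The E2F and cyclin E genes code for regulators of the programme. The 4 genes summed to 5.54, 25.8, 28.8 and 4.06 CPM, and 3 of the 4 were past 2-fold higher in WT 3 dpa, all 4 past 2-fold lower in mutant 3 dpa. *e2f8*, an atypical E2F that represses the programme late in S phase, stood at 1.60, 11.8, 11.9 and 0.773 CPM. It was 7.38-fold (4.90 to 11.6) higher at 3 dpa in WT and 15.4-fold (7.62 to 36.5) lower at 3 dpa in the mutant pair. *ccne2*, a cyclin E that drives entry into S phase, stood at 0.862, 5.29, 8.78 and 0.677 CPM, with 14 UMIs in WT UI and 7 in mutant 3 dpa. Its level in mutant UI was 10.2-fold (5.78 to 19.3) that in WT UI. *dtl*, the receptor by which a ubiquitin ligase recognises Cdt1 for destruction, stood at 2.34, 13.2, 8.87 and 1.55 CPM. The level of *dtl* was 5.63-fold (3.99 to 8.14) higher at 3 dpa in WT and 5.73-fold (3.36 to 10.4) lower in the mutant pair.

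Repair and cohesion genes had the smallest ratio of the 8 role groups in the mutant pair, 2.38-fold (2.07 to 2.74). The interval overlapped that of the nucleotide-supply genes (2.69-fold, 2.33 to 3.11). The 4 repair and cohesion genes with a row summed to 22.6, 60.3, 64.4 and 27.1 CPM. All 4 were past 2-fold higher in WT 3 dpa and 3 of 4 past 2-fold lower in mutant 3 dpa. *brip1*, a helicase that acts with Brca1, stood at 15.6, 37.3, 42.2 and 18.2 CPM. *brca2*, which acts in the repair of DNA breaks, stood at 4.87, 13.4, 13.9 and 8.12 CPM, and it was the fourth gene, 1.72-fold (1.31 to 2.27) lower in mutant 3 dpa than in mutant UI. Over the members, *brca2* and *rrm2* had the smallest mutant ratios on the log2 scale of CPM + 1, −0.71 and −0.66, and *chaf1a* the largest, −3.23.

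**Figure D2:**
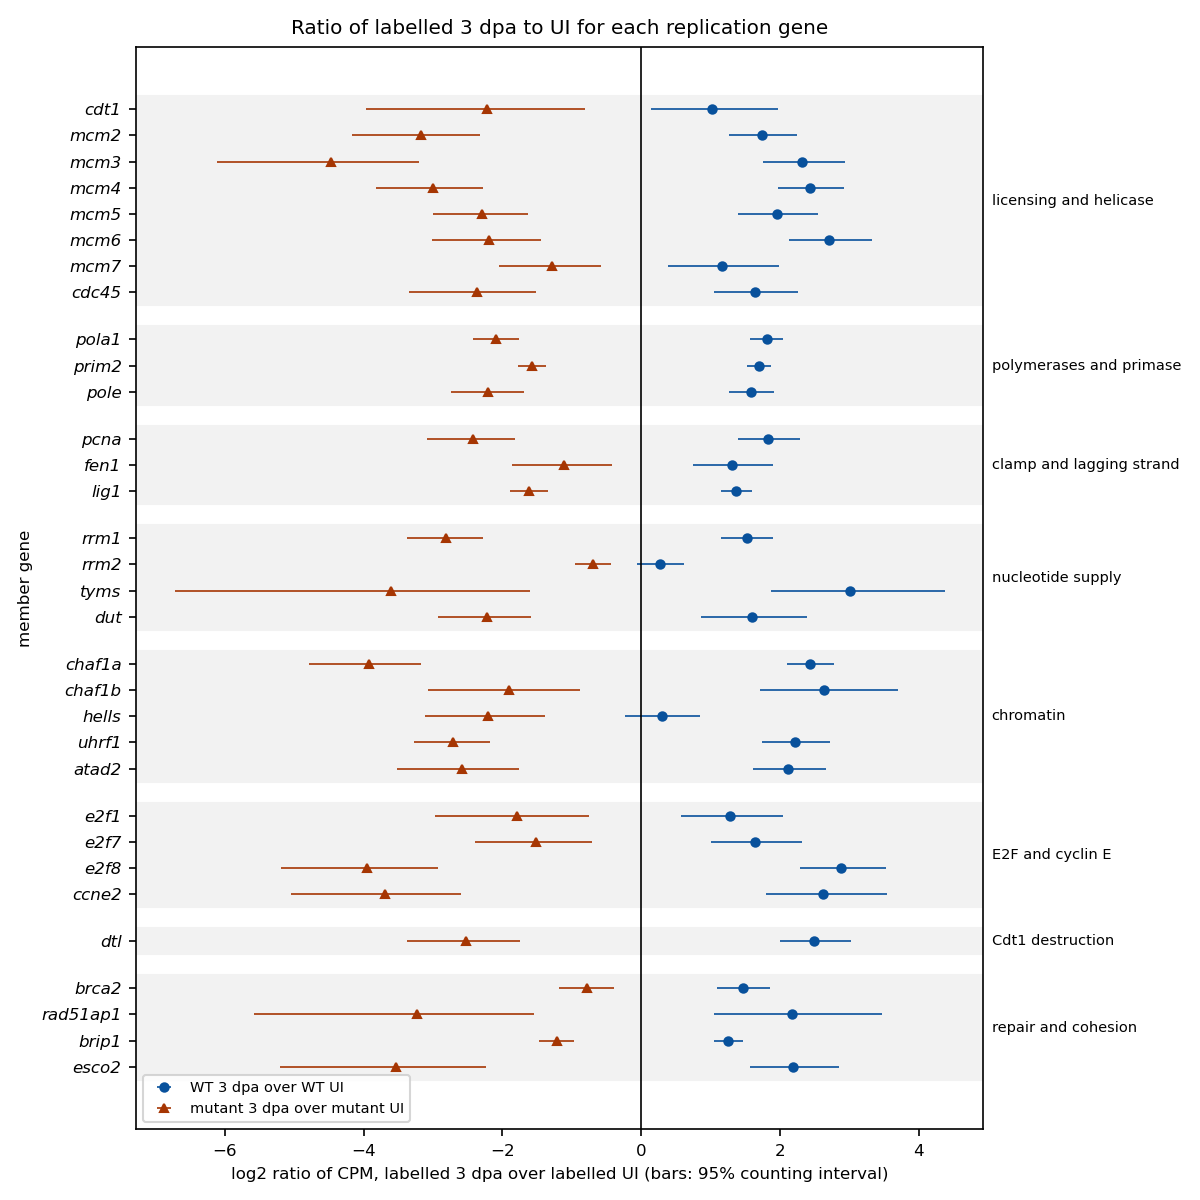
Log2 ratio of CPM of the library labelled 3 dpa over that labelled UI for each member, in WT (circles) and in the mutant (triangles), with bars for 95% counting intervals. Every WT point lies right of 0 and every mutant point left of it, and the WT bars of *rrm2* (−0.06 to 0.62) and *hells* (−0.23 to 0.84) reach across 0.

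A further 60 replication genes were listed beside the members, among them the origin recognition complex, the GINS and RPA complexes and the clamp loader, and 56 had a row. Their sum stood at 235, 445, 497 and 238 CPM, the order of the members with smaller ratios: 1.90-fold (1.83 to 1.97) upward in WT and 2.09-fold (1.99 to 2.192) downward in the mutant pair. In WT 21 of 55 counted genes were past 2-fold higher and 0 lower, beside 14.4% of all genes, with a median of 0.85. Under TMM 11 of 55 passed in WT, with a median of 0.48, and at CPM + 10 there were 0. In the mutant pair 32 of 55 were past 2-fold lower, beside 15.1% of all genes, and 1 higher, with a median of −1.16. At CPM + 10 there was 1 lower, beside 4.23% of all genes. The gene that was higher in the mutant pair at CPM + 1 was *orc6*, a subunit of the origin recognition complex, which stood at 3.70, 8.10, 6.70 and 14.7 CPM. It was above the UI level in both libraries labelled 3 dpa, by 2.19-fold (1.61 to 3.01) in WT and 2.19-fold (1.65 to 2.94) in the mutant. Of the 4 with the most UMIs, *timeless*, which keeps the replication fork intact, stood at 27.6, 33.7, 39.1 and 29.8 CPM. *tfdp1a*, the partner of E2F factors, stood at 19.5, 31.2, 37.2 and 18.3 CPM. *rpa1*, which coats single-stranded DNA, stood at 15.3, 28.2, 33.8 and 22.7 CPM. *usp1*, which removes ubiquitin from Pcna, stood at 16.6, 18.6, 15.8 and 14.3 CPM, and neither pair of libraries within a genotype differed beyond counting error. The 39 mitosis genes with a row summed to 127, 626, 535 and 97.3 CPM. Members made up 51.0%, 40.9%, 47.9% and 58.1% of the UMIs of both lists, so the share of replication RNA was lower in the libraries where both lists were high.

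Member UMIs were concentrated in few nuclei in the high libraries. Nuclei with 5 or more member UMIs numbered 48, 299, 201 and 10, and held 17.9%, 45.1%, 33.9% and 4.45% of all member UMIs. A single nucleus held UMIs of up to 15, 22, 19 and 8 different members. These counts were taken at full depth and move with it. After thinning each nucleus at random to 500 UMIs, which puts all nuclei at 1 depth over all genes of their table, 1.16% (0.941 to 1.42), 3.30% (2.96 to 3.66), 3.76% (3.39 to 4.15) and 0.525% (0.387 to 0.696) of nuclei held 2 or more member UMIs. The shared genes, from which levels were taken, held 99.9%, 100%, 89.2% and 90.7% of UMIs. On these genes the thinned depth was therefore lower in the mutant libraries. Without thinning the shares of nuclei were 3.999%, 11.1%, 9.40% and 1.97%. A mitosis UMI was also held by 22.1%, 43.4%, 43.7% and 16.7% of these nuclei, against 6.06%, 22.2%, 15.6% and 3.83% of the other nuclei. Of the nuclei with 2 or more member UMIs, 4.21%, 4.37%, 5.36% and 2.08% were among the 6% with the highest doublet score, beside 6.02%, 6.06%, 6.03% and 6.02% of the other nuclei.

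A smaller share of *rrm2* UMIs than of *prim2* UMIs lay in nuclei with 2 or more UMIs of other members in WT UI and mutant UI, and these shares move with depth. In WT UI 8.59% (4.37 to 14.9) of *rrm2* UMIs lay in such nuclei, and in mutant 3 dpa 5.13% (2.49 to 9.23), against 32.2% and 8.46% of *prim2* UMIs and 22.0% and 24.2% of *rrm1* UMIs. In WT 3 dpa and mutant UI the *rrm2* shares were 58.2% and 41.1% (35.8 to 46.5), beside 60.8% and 54.9% (51.5 to 58.2) for *prim2*. In the cardiomyocyte-like nuclei described next, *rrm2* had 72, 10, 159 and 148 UMIs, or 9.69, 3.72, 26.3 and 19.8 CPM, and there its level was lower in WT 3 dpa than in WT UI (log2 ratio −1.38, −2.50 to −0.42).

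Nuclei were clustered over the 4 libraries together, without the members, the other replication genes and the mitosis genes, and clusters were called "X-like" from cell type markers. The rule was looser for cardiomyocyte-like nuclei than for the other classes. RNA of cardiomyocyte markers was in every class, from 19596 CPM in fibroblast or epicardial-like nuclei of mutant UI to 124191 CPM in cardiomyocyte-like nuclei of WT UI, and 1668, 4108, 558 and 265 nuclei stayed unnamed. Different clusters held most cardiomyocyte-like nuclei in WT and in each mutant library, cluster 3 with 2457 nuclei in WT UI and 713 in WT 3 dpa, cluster 1 with 4734 in mutant UI and cluster 0 with 6075 in mutant 3 dpa. Endothelial or endocardial-like nuclei were likewise mostly in cluster 2 in WT and in cluster 8 in mutant 3 dpa. Macrophage-like nuclei joined clusters 4, 13 and 15, with 230, 267 and 357 nuclei in WT UI and 817, 264 and 75 in WT 3 dpa. In mutant UI these clusters held 1552, 87 and 1, and in mutant 3 dpa 154, 36 and 5. Ratios within these classes therefore compare different mixes of clusters. With each library clustered by itself, 0 nuclei of mutant 3 dpa were named cardiomyocyte-like. Gene-level counts past 2-fold are not given by class, since in small classes the members that reach 10 UMIs do so through the library in which they are high.

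The order WT 3 dpa above WT UI, and mutant UI above mutant 3 dpa, held in the summed member level of each of the 5 main classes, with very different sizes. TMM scaling was not applied by class. Over all genes, the WT median log2 ratio of CPM + 1 was 0.45 in erythroid-like and 0.22 in macrophage-like nuclei. It was 0.13 in cardiomyocyte-like, 0.35 in endothelial or endocardial-like and 0.21 in fibroblast or epicardial-like nuclei. In the mutant pair this median was −0.19 in erythroid-like and −0.45 in macrophage-like nuclei. It was −0.24 in cardiomyocyte-like, −0.26 in endothelial or endocardial-like and −0.33 in fibroblast or epicardial-like nuclei. Fibroblast or epicardial-like nuclei, with *col12a1b*, *col12a1a* and *fn1a* among their leading genes, had the widest gaps of the 5, with 160, 990, 1064 and 190 CPM. The WT ratio in this class was 2.63 on the log2 scale (2.201 to 3.09) and the mutant ratio −2.48 (−2.97 to −2.03). *prim2* had 7, 167, 143 and 8 UMIs and *chaf1a* 2, 88, 34 and 0 UMIs there. Endothelial or endocardial-like nuclei stood at 139, 388, 462 and 137 CPM, with log2 ratios of 1.48 (1.31 to 1.65) and −1.75 (−2.00 to −1.50). Macrophage-like nuclei were already high in WT UI, at 346, 472, 661 and 221 CPM, and their WT log2 ratio was 0.45 (0.27 to 0.63) while the mutant ratio was −1.58 (−2.07 to −1.13). Erythroid-like nuclei stood at 321, 501, 412 and 222 CPM, the WT UI value from 24 UMIs and the mutant 3 dpa value from 17. Cardiomyocyte-like nuclei had the lowest levels of the 5 classes in each of the 4 libraries, 101 CPM (93.4 to 108), 168 CPM (152 to 184), 396 CPM (381 to 413) and 130 CPM (122 to 138). Their WT log2 ratio was 0.74 (0.56 to 0.91), and that of the mutant pair was −1.61 (−1.72 to −1.503). The interval of their level overlapped that of erythroid-like nuclei in mutant UI (368 to 458). In mutant 3 dpa it also overlapped that of endothelial or endocardial-like nuclei (120 to 157). Unnamed cluster 5, led by *acta1a* and *ankrd1a*, would have been cardiomyocyte-like by its markers but was left out by the naming rule. It stood at 114 CPM in WT UI and 429 CPM in WT 3 dpa, a log2 ratio of 1.92 (1.74 to 2.09). Mural or smooth muscle-like nuclei, with 157, 133, 71 and 24 nuclei, stood at 118, 885, 694 and 133 CPM, the last from 5 UMIs.

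Barcodes that were filtered out carried the same RNA. In the mutant UI matrix the 19868 barcodes under 500 UMIs held 564 CPM (546 to 581) of member RNA, above the 396 CPM of its cardiomyocyte-like nuclei and the 462 CPM of its endothelial or endocardial-like nuclei. In mutant 3 dpa the same fraction held 174 CPM (151 to 201), above the 130 CPM of its cardiomyocyte-like nuclei. The part of RNA outside nuclei in the cardiomyocyte-like and endothelial or endocardial-like levels was not tested. Among WT libraries, barcodes over 5% mitochondrial UMIs held 142 CPM in WT UI and 541 CPM in WT 3 dpa.

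**Figure D3:**
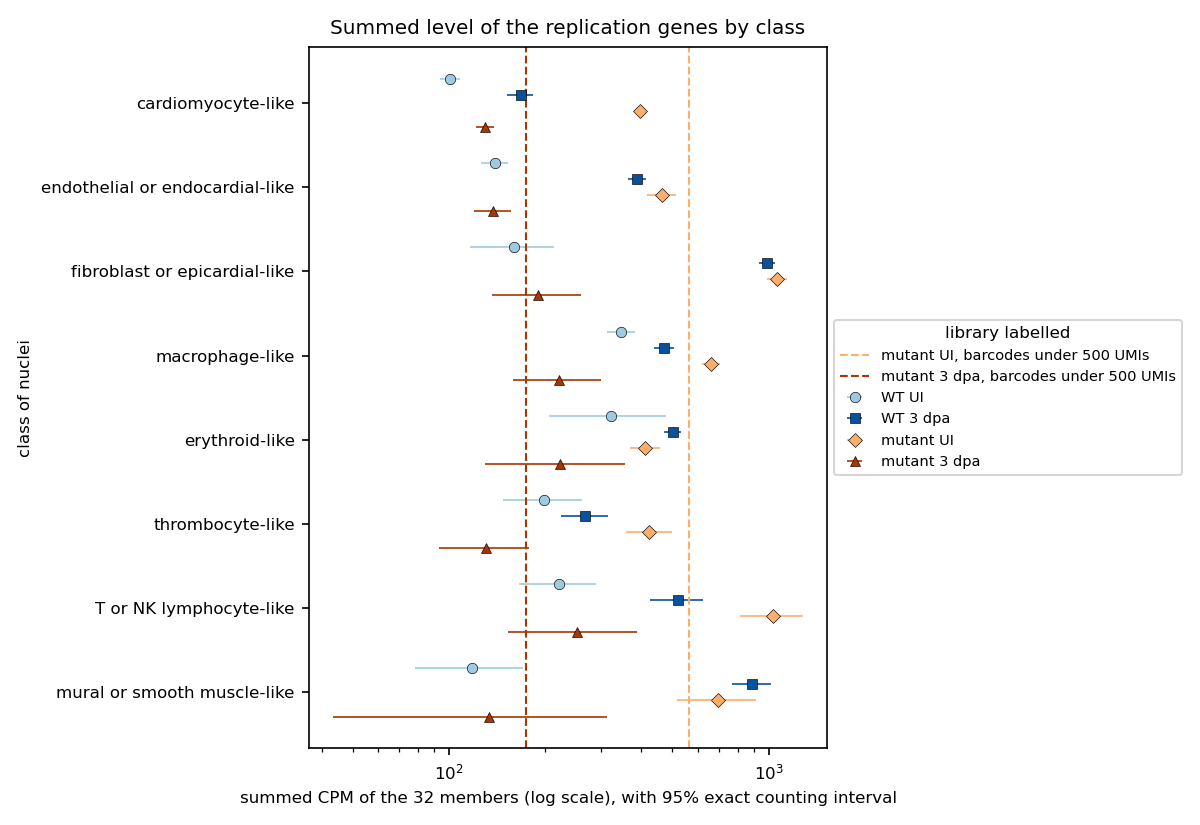
Summed level of the 32 members in CPM (log scale) by class of nuclei and library, with 95% counting intervals; dashed lines mark the barcodes under 500 UMIs of mutant UI (564 CPM) and mutant 3 dpa (174 CPM). The fibroblast or epicardial-like points of WT 3 dpa (990 CPM) and mutant UI (1064 CPM) lie to the right of both lines, and the cardiomyocyte-like points of mutant UI (396 CPM) and mutant 3 dpa (130 CPM) lie left of the line of their own library.

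By share of nuclei with 2 or more member UMIs after thinning, fibroblast or epicardial-like nuclei again stood highest in the 2 high libraries among the 5 main classes. Their shares were 1.44% (3 of 208), 8.32% (43 of 517), 11.98% (63 of 526) and 0.575% (1 of 174). In WT 3 dpa their interval (6.08 to 11.0) overlapped that of erythroid-like nuclei (4.96 to 7.76). The fibroblast or epicardial-like difference between 3 dpa and UI was 6.87 percentage points (3.46 to 9.74) for the WT libraries, and for the mutant libraries it was −11.4 points (−14.5 to −7.79). Endothelial or endocardial-like nuclei had 0.984%, 1.82%, 2.73% and 0.597%, a WT difference of 0.84 points (0.04 to 1.67) that was −0.05 points at 3 or more member UMIs. Mural or smooth muscle-like nuclei, outside the 5 main classes, had 1 of 157, 12 of 133, 5 of 71 and 0 of 24 nuclei. Their WT 3 dpa share was 9.02% (4.75 to 15.2). By the usual limit of 3 counts a 0 among 24 allows a share of up to 12.5% (exact upper bound 14.2%).

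The shares of macrophage-like nuclei were 5.27% (45 of 854), 3.46% (40 of 1156), 5.79% (95 of 1640) and 2.05% (4 of 195), so the WT share was lower at 3 dpa while the WT summed level was higher. The WT difference was −1.81 points (−3.74 to −0.02), and it was 2.98 points without thinning, 1.30 points after thinning to 1000 UMIs and 4.65 points at 1 or more member UMIs. No order of the WT macrophage-like shares is read from these values. Erythroid-like nuclei had 3.70% (2 of 54), 6.25% (76 of 1216), 3.01% (29 of 965) and 1.56% (2 of 128), and another random thinning turned the WT difference from 2.55 to −0.05 points, with only 54 nuclei in WT UI. T or NK lymphocyte-like nuclei had 4 of 149, 10 of 185, 9 of 106 and 2 of 97.

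As named here, cardiomyocyte-like nuclei had the lowest share of the 5 main classes in each of the 4 libraries, by point value only. Their shares were 0.248% (8 of 3224), 1.13% (11 of 971), 2.44% (119 of 4879) and 0.428% (27 of 6305), at median depths of 2062, 2580, 1168 and 1052 UMIs before thinning. Their interval overlapped that of endothelial or endocardial-like nuclei in WT 3 dpa (0.567 to 2.02 and 1.24 to 2.57). It also did so in mutant UI (2.02 to 2.91 and 1.72 to 4.098) and mutant 3 dpa (0.282 to 0.622 and 0.287 to 1.096). In WT UI the interval (0.107 to 0.488) overlapped those of fibroblast or epicardial-like (0.298 to 4.16) and erythroid-like nuclei (0.452 to 12.7). No class certain to lack the member genes was found, so no background share can be given. Thrombocyte-like nuclei are set beside cardiomyocyte-like nuclei without being such a class. Thrombocyte-like nuclei, from the clotting cells of fish, had 5.15% (7 of 136), 0.988% (4 of 405), 3.16% (12 of 380) and 0 of 278 nuclei, which by the limit of 3 counts allows up to 1.08% (exact upper bound 1.32%), at median depths of 923.5, 919, 716 and 823.5 UMIs. In WT the thrombocyte-like share was lower at 3 dpa, with a difference of −4.16 points (−9.29 to −1.12) from 7 and 4 nuclei. Without thinning these WT shares were 8.82% and 5.93%. Their summed WT levels were 198 CPM in UI and 267 CPM at 3 dpa. The cardiomyocyte-like share of WT UI lay below that of thrombocyte-like nuclei, and in mutant UI (2.02 to 2.91 and 1.64 to 5.45) and WT 3 dpa (0.567 to 2.02 and 0.270 to 2.51) the intervals of both shares overlapped. In mutant 3 dpa the cardiomyocyte-like share was under the limit that 0 of 278 allows. The difference of the cardiomyocyte-like share in WT was 0.88 points (0.33 to 1.78), from 8 and 11 nuclei, and 0.113 points at 3 or more member UMIs, from 3 and 2 nuclei. In the mutant it was −2.01 points (−2.50 to −1.57). Unnamed cluster 5, led by *acta1a* and *ankrd1a*, had 5 of 1284, 37 of 1263, 3 of 76 and 0 of 10 nuclei, and adding it to the cardiomyocyte-like nuclei, a choice made after seeing the data, gave a WT difference of 1.86 points. The share of cluster 5 in WT 3 dpa was 2.93% (2.07 to 4.02), beside 1.82% (1.24 to 2.57) for endothelial or endocardial-like nuclei. The rank of cardiomyocyte-like nuclei in WT 3 dpa therefore rests on the rule that left cluster 5 unnamed.

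**Figure D4:**
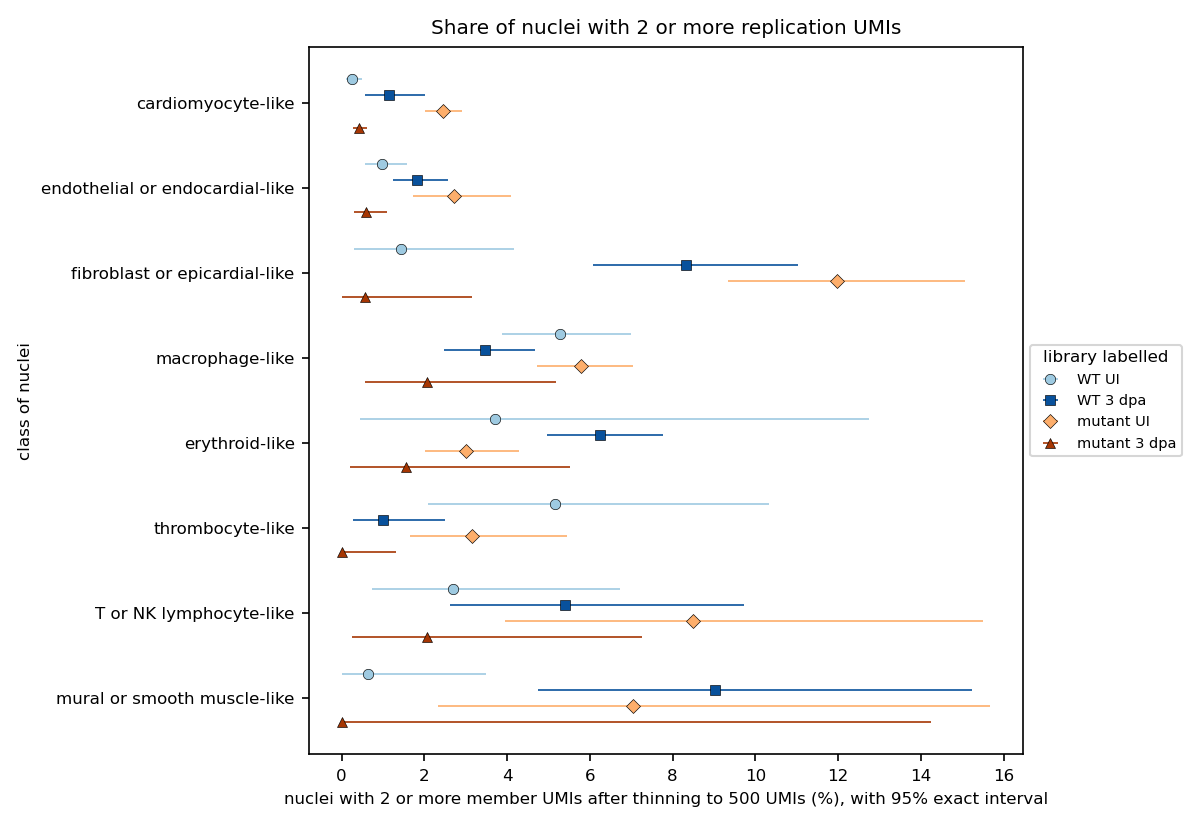
Share of nuclei with 2 or more member UMIs after thinning to 500 UMIs, in percent, by class of nuclei and library, with 95% exact intervals. Fibroblast or epicardial-like nuclei reach 8.32% in WT 3 dpa and 11.98% in mutant UI, cardiomyocyte-like nuclei stay at or under 2.44%, and the small classes have wide intervals.

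Which nuclei made up the 95, 343, 373 and 48 nuclei with 2 or more member UMIs differed between libraries. In WT UI 47.4% of them were macrophage-like and 8.42% cardiomyocyte-like, against 10.4% and 39.4% of all its nuclei. In WT 3 dpa 22.2% were erythroid-like, 12.5% fibroblast or epicardial-like and 33.8% unnamed, against 11.7%, 4.97% and 39.5% of all its nuclei. In mutant UI 31.9% were cardiomyocyte-like, 25.5% macrophage-like and 16.9% fibroblast or epicardial-like, against 49.1%, 16.5% and 5.30% of all its nuclei. In mutant 3 dpa 27 of the 48 were cardiomyocyte-like, a class that made up 69.0% of its nuclei. These shares depend on the sizes of the classes and the number of nuclei left unnamed, and they rest on 1 library per group.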

How the data were processed

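The deposited files hold whole-number UMI counts per gene and nucleus in 1 matrix per group, with the libraries made by a 3 prime droplet kit per the labels' protocols. The submitters' processing notes name the genome build GRCz11, Cell Ranger 7.0.0, Seurat 4.3.0 and R 4.2.0, with no role or order given. The values were not normalized in the deposited matrices. The mutant matrices reach below 500 UMIs and the WT matrices do not, so filters before deposit may differ.

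Kept nuclei had at least 500 UMIs, with mitochondrial genes at 5% of them or less. Counts were summed per library and class and divided by the total on the 25395 gene IDs that all 4 tables share with 1 symbol, which held 99.9%, 100%, 89.2% and 90.7% of UMIs in the WT pair and then the mutant pair, UI first in each. Those totals were 16233190, 18521265, 11050319 and 10346669 UMIs. With 1 matrix per group no test was possible. Intervals are exact Poisson for levels, conditional binomial for ratios, Clopper-Pearson for shares and Newcombe for differences of shares.

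Nuclei were clustered by the Leiden method (scanpy 1.11.5, leidenalg 0.10.2, 2000 variable genes, 30 components, 15 neighbours, resolution 1). Clusters were named from markers by their mean log2 excess over the median cluster of the same library. A class needed an excess of 1 or more and 3 markers raised 2-fold. Cardiomyocyte RNA was in every cluster, so that class had a looser rule. It needed only the highest excess, at 0.25 or more, with 75% of its markers above the median cluster. Clusters 0, 1, 3 and 12, called cardiomyocyte-like, had 0, 1, 0 and 0 cardiomyocyte markers raised 2-fold. The rule was set after the clusters, and once their member levels, had been seen. Scrublet's automatic threshold marked 0, 1, 0 and 0 nuclei and did not work, so no doublets were removed, and removing the 6% with the highest score (491, 624, 596 and 548 nuclei) was an alternative. TMM factors came from edgeR 4.0.16 in R 4.3.3 and serve as a scaling only. Python 3.11.15, numpy 2.4.6, scipy 1.17.1, pandas 2.3.3 and matplotlib 3.10.9 were used, and the per-gene ratios were tested on simulated data.

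The members and lists were chosen with earlier results of these data known. Values in every library are given for the 2 members of each role group with the most UMIs, and for any member that ran against its group by 2-fold, of which there were 0. Of the other replication genes, the 4 with the most UMIs are named. Genes outside this rule were named after their values were seen. A search of promoters for motifs was planned and not run, since no promoter sequences were at hand.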

Additional observations from a re-analysis of the deposited data

Results flagged for a closer look

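The log2 ratio of the member sum, labelled 3 dpa over labelled UI, pointed upward in WT and downward in the mutant, in all nuclei and in each of the 5 main classes. In erythroid-like nuclei the interval of the WT ratio (0.06 to 1.29) included the median of all genes in that class, 0.45. The mutant ratio minus the WT ratio was −3.58 in all nuclei, −2.35 in cardiomyocyte-like, −3.23 in endothelial or endocardial-like, −5.11 in fibroblast or epicardial-like, −2.03 in macrophage-like and −1.53 in erythroid-like nuclei. With 1 library per group the difference was not tested. Whether the 2 mutant matrices carry each other's condition names cannot be told from the files, and an exchange would turn the sign of the mutant ratios.

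Barcodes under 500 UMIs, which no comparison uses, carried member RNA at 564 CPM in mutant UI and 174 CPM in mutant 3 dpa. Both values lay above the levels in the kept nuclei of the same libraries, 492 and 135 CPM.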

How the results depend on the processing

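No sum over the members in all nuclei changed direction under any alternative tried. Of the log2 ratios of the member sum, WT 3 dpa over WT UI became 1.85 and mutant UI over WT UI 2.03 with 1000 or more UMIs per nucleus. With all genes of each table, mutant UI over WT UI became 1.73 and mutant 3 dpa over WT 3 dpa −1.83. Under TMM the 4 ratios, in the order WT pair, mutant pair, UI pair and 3 dpa pair, became 1.17, −1.46, 1.504 and −1.13. Counts past 2-fold rested on the pseudocount. At CPM + 10 they were 3, 7, 8 and 7 members in that order, and 0, 1, 1 and 0 other replication genes against 21, 33, 27 and 25. Over all genes 2.54% were then past 2-fold higher in the WT pair, 4.23% lower in the mutant pair, 5.35% higher in the UI pair and 5.57% lower in the 3 dpa pair. Low levels are pulled together by that pseudocount. Under TMM 17 members and 11 other replication genes passed in the WT pair, and 16 other replication genes in the 3 dpa pair. Of the values of single members under these alternatives 122 moved by more than counting error and 902 did not. None of those past 2-fold changed sign, and 3 that were not past it did, under TMM: *rrm2* from 0.25 to −0.23 and *hells* from 0.23 to −0.18 in the WT pair, and *mcm7* from −0.22 to 0.18 in the 3 dpa pair.

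Differences of shares, 3 dpa minus UI in percentage points, depended on depth and threshold. Cardiomyocyte-like nuclei gave in WT 2.92 without thinning, 2.82 at 1 or more and 0.113 at 3 or more member UMIs, 2.13 at resolution 2, 1.84 with the lists kept in the clustering, 1.87 with each library clustered by itself and 1.86 with unnamed cluster 5 added, a choice made after seeing the data. In the mutant they gave −3.98 after thinning to 1000 UMIs, −5.09 without thinning, −6.74 at 1 or more and −0.864 at 3 or more. Endothelial or endocardial-like nuclei gave in WT 2.32 with 1000 or more UMIs per nucleus, 6.02 after thinning to 1000 UMIs, 5.86 without thinning, 6.70 at 1 or more and, reversed, −0.0519 at 3 or more. In the mutant they gave −6.28 after thinning to 1000 UMIs, −5.63 without thinning, −9.83 at 1 or more and −0.684 at 3 or more. Fibroblast or epicardial-like nuclei gave, for thinning to 1000 UMIs, no thinning, 1 or more and 3 or more, 22.9, 35.8, 24.7 and 2.71 in WT and −24.6, −27.0, −27.1 and −3.99 in the mutant. Macrophage-like nuclei reversed in WT to 1.30 after thinning to 1000 UMIs, 2.98 without thinning and 4.65 at 1 or more, and in the mutant gave −7.79, −8.09 and −14.2. Erythroid-like nuclei gave in WT 6.24 without thinning, 6.28 at 1 or more and, reversed, −0.0457 with another thinning seed. In the mutant they gave −4.86 without thinning, −8.04 at 1 or more, −3.83 at resolution 2 and, reversed, 1.25 at 3 or more. Except where a threshold or depth sets the share by its construction, the cause was not tested. The other 81 shares moved by less than their intervals.

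The cardiomyocyte-like share of the mutant pair with each library clustered by itself, and 3 erythroid-like shares with few nuclei, gave no value. With each library clustered by itself, 3233 nuclei of mutant UI and 0 of mutant 3 dpa were named cardiomyocyte-like. In the main setting 6305 nuclei of mutant 3 dpa were. The cardiomyocyte-like values of mutant 3 dpa therefore rest on the joint clustering. No paired analysis was possible because the barcodes carry no sample, so there were no replicates to pair or leave out.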
